A study of Mus musculus with 18 samples.

Results

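Of the 18 left ventricle (LV) libraries of the series, 5 held the atrial myosin light chain Myl7 at 10 TPM or more (TPM, transcript abundance scaled for transcript length and library size), 12 held it below 5 TPM, and 1 lay between. The libraries were chosen by this measured level, and the groups are called high-Myl7 and low-Myl7 below. The RNA came from WT mice and from WWP2Mut/Mut mice, which carry on both alleles a frame-shifting deletion of 4 bases in the second exon of Wwp2, made with CRISPR/Cas9 on a C57BL/6J background, and were bred with the WT mice as littermates. All 18 mice, 9 of each genotype, received AngII, a peptide hormone that raises blood pressure, at 500 ng/kg/min from an osmotic pump placed at 8 weeks of age, and the LV was taken after 28 days. Each library is a separate mouse, and no untreated mouse or dissected atrium was measured here. The high-Myl7 libraries were WT mice 45-1, 43-3 and 84-2 and WWP2Mut/Mut mice 8-2 and 22-3, and 6 WT and 6 WWP2Mut/Mut libraries were low. The share of high-Myl7 libraries was 3 of 9 in WT and 2 of 8 in WWP2Mut/Mut mice (Fisher's exact test, two-sided, p = 1).

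Atrial and ventricular cardiomyocytes build their sarcomeres from partly different genes. Adult atrial myocytes use the light chains encoded by Myl7 and Myl4 in place of Myl2 and Myl3 and express sarcolipin (Sln), a small inhibitor of the calcium pump of the sarcoplasmic reticulum. The left atrium joins the LV at the mitral annulus, a fibrous ring with the valve leaflets, and fat lies in the groove outside it. In the bulk RNA of a tissue piece, more cells of a type and more RNA per cell cannot be told apart.

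The promoters of 3 of these genes are shown because Myl7 set the groups and Myl4 and Mybphl were, with Sln, the genes with the highest Pearson correlation with it. The sequences are the 250 bases before the RefSeq gene start on GRCm38.p6, written 5′ to 3′ on the strand of the gene. Capitals mark a GATA element (GATAA on either strand) or a CArG box. The other motifs searched on both strands, AGGTGT of T-box factors and AGGTCA of nuclear receptors, were not in these 3 windows, and the marked motifs do not overlap.
Myl7, chr11:5898783-5899032, minus strand: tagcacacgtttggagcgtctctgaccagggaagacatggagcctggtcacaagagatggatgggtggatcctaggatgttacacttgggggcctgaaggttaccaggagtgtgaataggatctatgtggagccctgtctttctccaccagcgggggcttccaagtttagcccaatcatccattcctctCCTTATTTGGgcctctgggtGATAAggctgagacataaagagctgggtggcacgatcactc
Myl4, chr11:104550413-104550662, plus strand: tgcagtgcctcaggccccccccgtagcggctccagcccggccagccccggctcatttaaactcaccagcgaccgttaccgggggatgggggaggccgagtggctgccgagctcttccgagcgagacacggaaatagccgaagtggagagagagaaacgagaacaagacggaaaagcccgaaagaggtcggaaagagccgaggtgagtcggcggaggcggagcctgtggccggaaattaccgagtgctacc
Mybphl, chr3:108364661-108364910, plus strand: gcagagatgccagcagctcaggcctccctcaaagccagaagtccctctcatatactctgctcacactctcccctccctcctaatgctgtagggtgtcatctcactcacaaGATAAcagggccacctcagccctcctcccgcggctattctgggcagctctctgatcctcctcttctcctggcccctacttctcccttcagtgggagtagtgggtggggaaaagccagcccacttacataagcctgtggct
A GATA element was found in 22.6% of 32851 promoter windows of this length, AGGTGT in 11.8%, AGGTCA in 14.0%, and a CArG box, the site of serum response factor, in 1.47%. The Myl7 window held both, the Mybphl window held a GATA element, and the Myl4 window, at the most upstream of several annotated starts of that gene, held none. Sln was not in the promoter table. A match is a description of the letters and not evidence of binding.

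Myl7 was at 338 TPM in WT 45-1, 213.75 TPM in WWP2Mut/Mut 8-2, 156 TPM in WT 43-3, 87.6 TPM in WT 84-2 and 48.7 TPM in WWP2Mut/Mut 22-3. Just inside the upper threshold was therefore 48.7 TPM. Just outside it was WWP2Mut/Mut 53-1 at 7.14 TPM, in neither group, and the highest low-Myl7 library was WWP2Mut/Mut 52-1 at 2.27 TPM. The 12 low-Myl7 libraries ran down to 0.09 TPM with a median of 0.465 TPM. These values chose the groups and are given as a description only.

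The other markers that name atrial tissue, Myl4 and Sln, were high in the same libraries, which is a check of the label and not a test. Myl4, the atrial essential light chain (chr11:104550663-104595753), was at 255, 173, 129, 69.5 and 40.2 TPM in the 5 high-Myl7 libraries, in the order above. It was between 1.45 and 5.71 TPM in the low-Myl7 libraries, with a median of 3.25 TPM, so the groups were far apart. Sln (chr9:53850164-53854560) was at 35.1, 18.3, 8.11, 4.61 and 4.23 TPM in the high-Myl7 libraries and at most 0.26 TPM in the low-Myl7 libraries, with a median of 0.06 TPM. The difference between the groups, on the log2 scale of the fitted counts, was 5.17 ± 0.35 for Myl4 and 7.13 ± 0.57 for Sln (± SE, n = 5 and 12 libraries). WWP2Mut/Mut 53-1, which did not enter the fit, held 9.53 TPM of Myl4, 0.46 TPM of Sln and 0.45 TPM of Mybphl, each above every low-Myl7 library and below every high-Myl7 library.

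**Figure D1:**
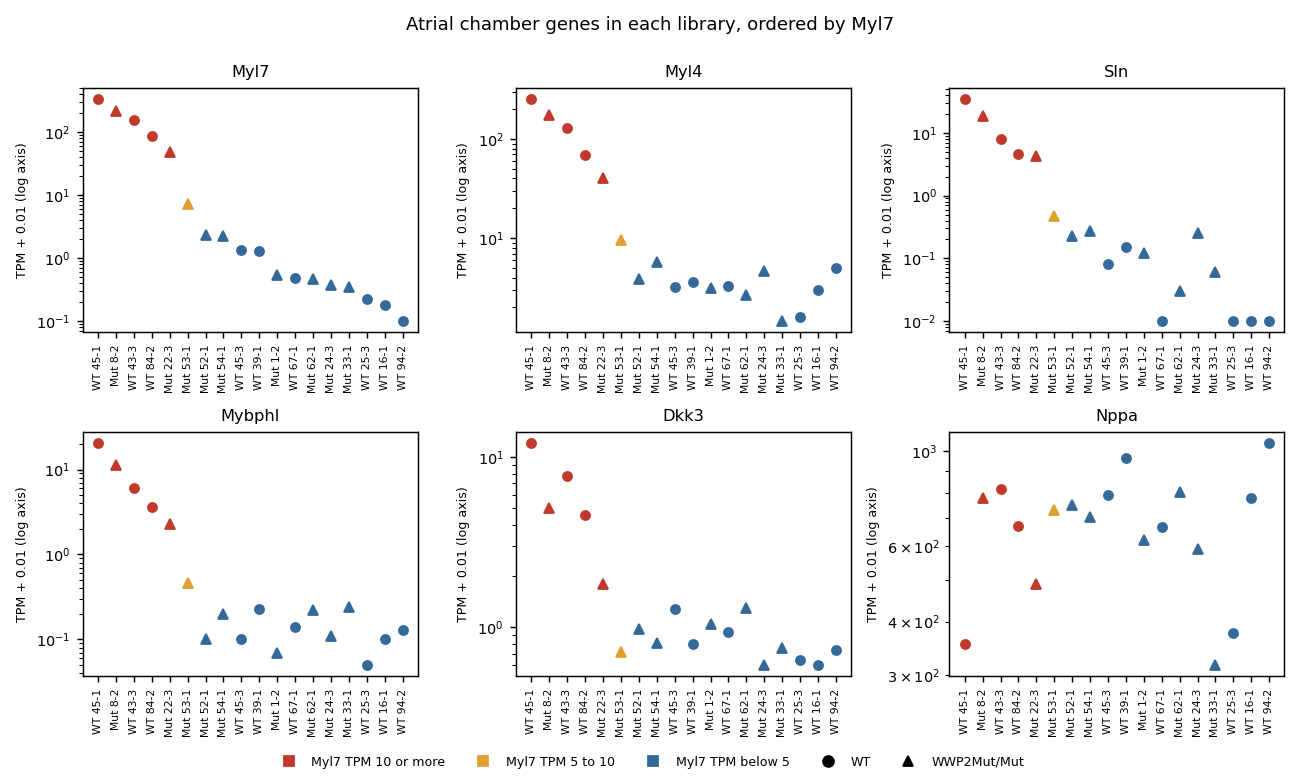
TPM plus 0.01 on a log axis for 6 atrial chamber genes in the 18 libraries, 1 point per library, ordered from the highest to the lowest Myl7, with circles for WT and triangles for WWP2Mut/Mut. Myl4, Sln, Mybphl and Dkk3 separate the 5 high-Myl7 libraries from the 12 low-Myl7 libraries, and Nppa, between 354 and 815 TPM in the former and 317 and 1047 TPM in the latter, does not.

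Across all genes, 50 were higher and 3 were lower in high-Myl7 libraries at an adjusted p below 0.05, Myl7 left out (edgeR quasi-likelihood test with genotype as covariate). These are 0.202% and 0.0121% of the 24692 genes tested. The median log2 difference of all genes was -0.02. At an unadjusted p under 0.05 there were 1610 higher and 1639 lower genes. For 29 of the 50 higher genes every high-Myl7 library lay above every low-Myl7 library in TPM, an arrangement that 71 genes (0.288%) showed in all. Most of the 50 were scarce: 30 averaged below 1 TPM even in the high-Myl7 libraries, and their fitted folds rest on few counts. The difference ranged from 0.61 (Pxylp1) to 7.13 (Sln) on the log2 scale.

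Of the 17 atrial chamber genes besides Myl7, 5 were called higher, Myl4, Sln, Mybphl and Dkk3 among them, none lower and 12 not called. The list's median log2 difference was 0.42. Mybphl, a myosin binding protein of atrial and conduction myocytes (chr3:108364911-108380057), was at 20.7, 11.4, 6.10, 3.57 and 2.26 TPM in the high-Myl7 libraries and between 0.04 and 0.23 TPM in the low ones. Its log2 difference was 5.84 ± 0.40 (adjusted p = 3.70e-08). Dkk3, a secreted glycoprotein of the Dickkopf family (chr7:112116017-112159057), was at 12.1, 5, 7.71, 4.56 and 1.79 TPM against 0.59 to 1.29 TPM (median 0.795). Its difference was 2.54 ± 0.27 (adjusted p = 1.93e-05), and the groups did not overlap.

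The other 12 atrial chamber genes were not called. Nppa, the precursor of atrial natriuretic peptide, was at 354, 776, 815, 670 and 489 TPM in the high-Myl7 libraries and between 317 and 1047 TPM (median 725) in the low ones. Its log2 difference was -0.43 ± 0.26 (adjusted p = 0.434), and the groups overlapped throughout. Bmp10, a ligand of the right atrium in the adult heart, was at no more than 0.03 TPM in any library. The potassium channel gene Kcna5 (-0.28 ± 0.23), the connexin gene Gja5 (-0.14 ± 0.16), the transcription factor genes Nr2f2 (-0.21 ± 0.13), Nr2f1 (0.07 ± 0.23) and Hey1 (-0.31 ± 0.16) also missed the threshold. Sbk2, a kinase gene, lay above every low-Myl7 library in all 5 high-Myl7 libraries, at 4.40 to 7.89 TPM against 1.67 to 3.79 TPM, yet its log2 difference of 0.68 ± 0.19 was not called (adjusted p = 0.268). It was called with gene body coverage as a covariate (0.91 ± 0.19, adjusted p = 0.0307) and by limma on log2(TPM + 0.1) (1.03 ± 0.18, adjusted p = 0.0171) and log2(TPM + 1) (0.83 ± 0.14, adjusted p = 0.0208). Tbx5, with a log2 difference of 0.68 ± 0.18, Pam, with 0.52 ± 0.21, Stard10, with 0.42 ± 0.20, and Kcnj3, with 0.33 ± 0.12, overlapped between the groups in TPM and were not called. Stard10 was called with gene body coverage as a covariate (0.82 ± 0.12, adjusted p = 8.59e-04).

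**Figure D2:**
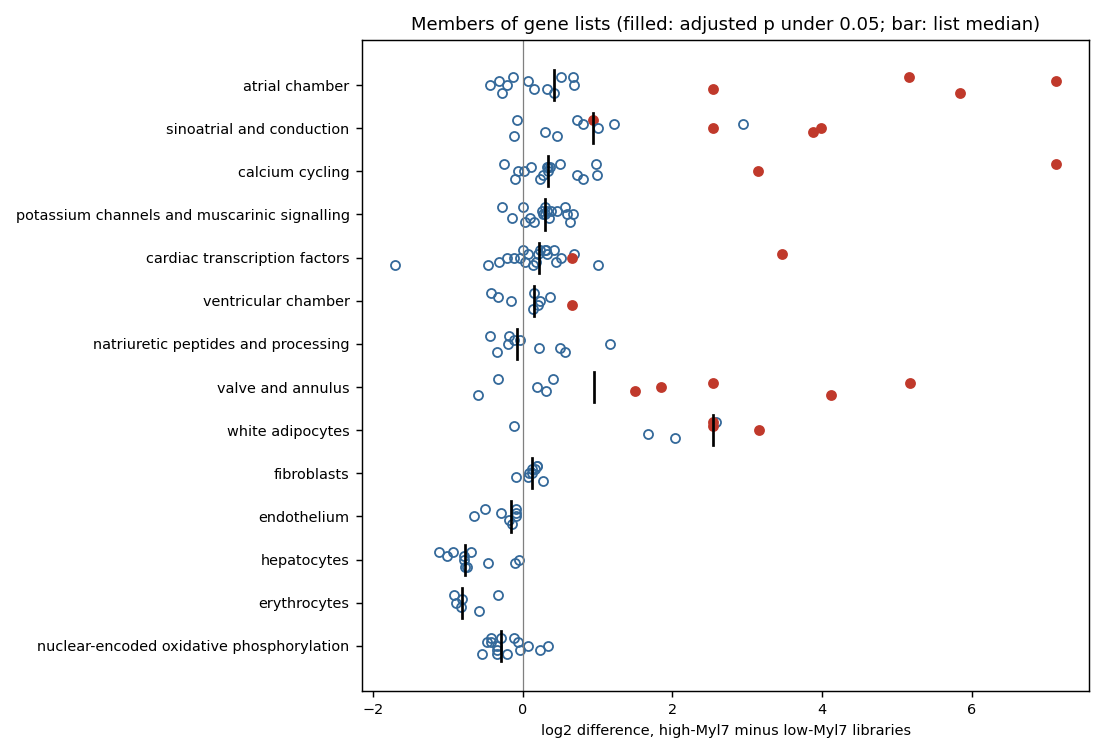
Log2 difference, high-Myl7 minus low-Myl7 libraries, for the members of 14 gene lists that are described here, with filled points for genes called at an adjusted p below 0.05 and a bar at each list's median; Myl7 is left out. The called atrial genes shown lie between 2.54 and 7.13. The list median is 0.15 for the ventricular and 0.13 for the fibroblast list, and -0.16 for the endothelial and -0.29 for the oxidative phosphorylation list.

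The genes differed in how closely they followed Myl7. For each gene, its level above the low-Myl7 median was divided by that of Myl7 in the same library. Myl4 gained between 74.5 and 80.3 TPM for each 100 TPM of Myl7 in the 5 libraries, a coefficient of variation (CV) of 3.16%, over a range of Myl7 from 48.7 to 338 TPM. Ppp1r1b, which encodes the phosphatase inhibitor DARPP-32, had a CV of 11.7% and Mybphl one of 20.1%. These were the only called genes under 25%. Sln, with a CV of 30.4%, was relatively richest in WT 45-1, at 10.4 TPM per 100 TPM of Myl7, and poorest in WT 43-3, at 5.16 TPM. By contrast, 33 of the 50 genes had a CV of 50% or more. Counting noise also widens the CV of scarce genes, and 30 of the 50 averaged below 1 TPM in the high-Myl7 libraries. Across all 18 libraries the genes whose log2(TPM + 1) correlated most with that of Myl7 were Myl4 (Pearson r = 0.984, Spearman rho = 0.810), Sln (0.967 and 0.919), Mybphl (0.958 and 0.721), Dkk3 (0.922 and 0.795) and P3h4 (0.919 and 0.721). The libraries fall into separated clusters, so these values are descriptions. Among the 12 low-Myl7 libraries alone the Pearson r was 0.414 for Myl4, 0.719 for Sln, 0.197 for Mybphl, 0.388 for Dkk3 and 0.181 for P3h4. P3h4, of the prolyl 3-hydroxylase family, was at 11.5 to 13.9 TPM against 7.94 to 9.83 TPM and was not called (log2 difference 0.29 ± 0.09, adjusted p = 0.316).

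**Figure D3:**
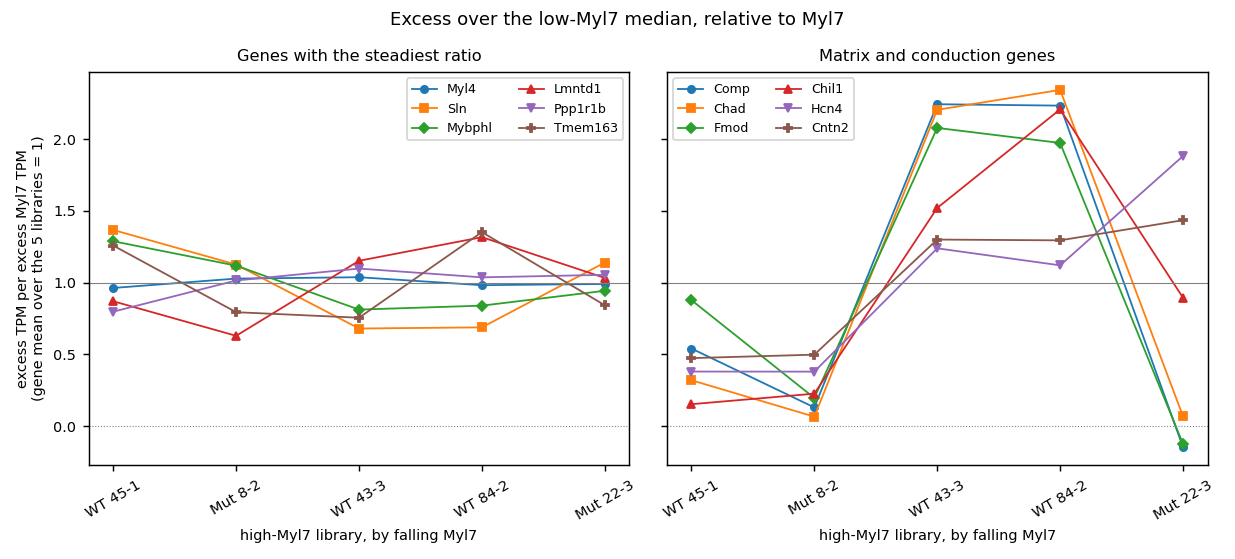
Level above the low-Myl7 median per unit of Myl7 above its median, scaled so that each gene averages 1 over the 5 high-Myl7 libraries, which are ordered by falling Myl7. Left, 6 genes with small spread, Myl4 being nearly flat; right, Comp, Chad and Fmod peak in WT 43-3 and WT 84-2 and are near 0 or below in WWP2Mut/Mut 22-3, and Hcn4 and Cntn2 are highest there.

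The 15 higher genes with the smallest p included Myl4, Mybphl, Sln and Dkk3. Of the others, Cacna2d2, an auxiliary subunit of voltage-gated calcium channels, was at 1.67, 0.81, 1.48, 1.10 and 0.41 TPM in the high-Myl7 libraries against 0.03 to 0.18 TPM, a log2 difference of 3.14 ± 0.26 (adjusted p = 4.66e-07). Cpne5, a copine that binds phospholipid with calcium, was at 2.70, 0.77, 1.53, 1.03 and 0.28 TPM against 0.01 to 0.16 TPM, a difference of 3.99 ± 0.40. Both separated the groups fully. Nfasc, the cell adhesion molecule neurofascin, rose by 3.30 ± 0.33 on the log2 scale, at 0.04 to 0.34 TPM against at most 0.04 TPM. Unc80, a subunit of the sodium leak channel complex, was at 0.03 to 0.06 TPM in the high-Myl7 libraries and listed at 0 TPM in every low-Myl7 library, where its counts were at most 2. Its reads came mainly from the high-Myl7 libraries, so its call is a description. The adjusted p and the fitted fold of Unc80, which depends on the prior count, are not given. Lmntd1, a lamin tail domain gene, was at 0.73 to 3.62 TPM against 0.04 to 0.31 TPM (3.35 ± 0.37). Sfrp5, a secreted Wnt inhibitor, was at 0.64 to 3.74 TPM against 0.08 to 0.47 TPM (2.88 ± 0.34). Ppp1r1b was at 1.62, 1.34, 1.10, 0.67 and 0.46 TPM against 0.11 to 0.41 TPM (2.38 ± 0.29). Epn3, an endocytic adaptor, changed least of the 15, at 5.82 to 11.1 TPM against 1.97 to 5.20 TPM (0.86 ± 0.11). The lipoxygenase gene Alox8 (4.63 ± 0.53), Plppr5 (at most 1 count in any low-Myl7 library) and Cilp2, a cartilage intermediate layer protein (3.45 ± 0.46), completed the 15 with adjusted p between 5.69e-05 and 4.36e-04. The reads of Plppr5 came mainly from the high-Myl7 libraries, so its call is a description.

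Of 13 tested genes of the sinoatrial node and conduction system, 4 were higher, none lower and the rest not called, with a list median of 0.94. With lane as a covariate, Cpne5 was the only one of the 4 still called, and the adjusted p was 0.0669 for Hcn4 and 0.0616 for Cntn2. Hcn4, the main pacemaker channel, was at 2.17, 1.69, 2.83, 1.86 and 1.79 TPM in the high-Myl7 libraries and between 0.55 and 1.38 TPM (median 0.87) in the low ones, a log2 difference of 0.94 ± 0.13 (adjusted p = 5.68e-04). Cntn2, the adhesion molecule contactin 2 of Purkinje cells, was at 2.68, 1.88, 3.32, 1.98 and 1.33 TPM against 0.08 to 0.58 TPM (median 0.30), a difference of 2.55 ± 0.35 (adjusted p = 5.68e-04). Neither gene overlapped between the groups, and WWP2Mut/Mut 53-1, at 0.81 and 0.21 TPM, sat inside the low range for both. Cpne5 is the third called member, and Vsnl1, a neuronal calcium sensor, is the fourth (at most 0.24 TPM, and at most 1 count in any low-Myl7 library). The reads of Vsnl1 came mainly from the high-Myl7 libraries, so its call is a description. Isl1, which marks the sinoatrial node, had 0 TPM in every library. The summed TPM of the list was 21.4 to 43.8 in high-Myl7 and 13.7 to 19.9 in low-Myl7 libraries (exact permutation test, two-sided, p = 3.23e-04, adjusted over 20 lists p = 0.00646). The lists were chosen with earlier results of these data known, so the permutation p-values of lists here and below are descriptions only. The transcription factor genes Gata5 (3.47 ± 0.53, at most 0.25 TPM) and Irx5 (0.66 ± 0.14, 2.1 to 2.49 TPM against 0.73 to 1.81 TPM) were also higher, the call of Irx5 being lost in 23 of 34 alternative settings. Gata5 overlaps Gata5os on the other strand, which was called too, and how strand was used in counting is not given in the sources used here, so their reads may be shared.

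Of the 10 genes of the valve and annulus list, which encode mostly extracellular matrix and secreted proteins, 5 were higher and none lower, with a list median of 0.95. All 5 lay within the low-Myl7 range in WWP2Mut/Mut 22-3, and none was called with lane as a covariate, where the adjusted p was 0.442 to 0.643. Comp, cartilage oligomeric matrix protein, was at 7.83, 2.26, 13.9, 8.27 and 1.01 TPM in the high-Myl7 libraries and between 0.85 and 1.87 TPM in the low ones, a log2 difference of 1.85 ± 0.29 (adjusted p = 0.00311). Fmod, the collagen-binding proteoglycan fibromodulin, was at 7.43, 1.51, 8.08, 4.54 and 0.40 TPM against 0.24 to 0.86 TPM (2.55 ± 0.46, adjusted p = 0.0148). Chad, chondroadherin, was at 1.33, 0.18, 4.22, 2.51 and 0.05 TPM against at most 0.10 TPM (5.17 ± 0.82, adjusted p = 0.0037). In all 3 genes WT 43-3 was highest. Wif1, a secreted Wnt inhibitor (1.51 ± 0.27), and Hapln1, a hyaluronan link protein (at most 1 count in any low-Myl7 library), were the others called. The reads of Hapln1 came mainly from the high-Myl7 libraries, through which it entered the test, so its call is a description. Among all 50 higher genes, 27 were highest in WT 43-3 and 21 in WT 45-1, and 37 were lowest, within the high-Myl7 group, in WWP2Mut/Mut 22-3. The summed TPM of the list, which was chosen with earlier results of these data known, was 17.2 to 59.5 against 10.9 to 21.6 (exact permutation test, p = 0.00517, adjusted p = 0.0345). Without WT 45-1 the adjusted p was 0.0879. The list was not called either without WT 43-3 or without WT 84-2, so that leaving out any of the 3 WT high-Myl7 libraries ended the call. Of the fibroblast list none of 9 members was called, and of the activated fibroblast list 1 of 8, Comp.

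**Figure D4:**
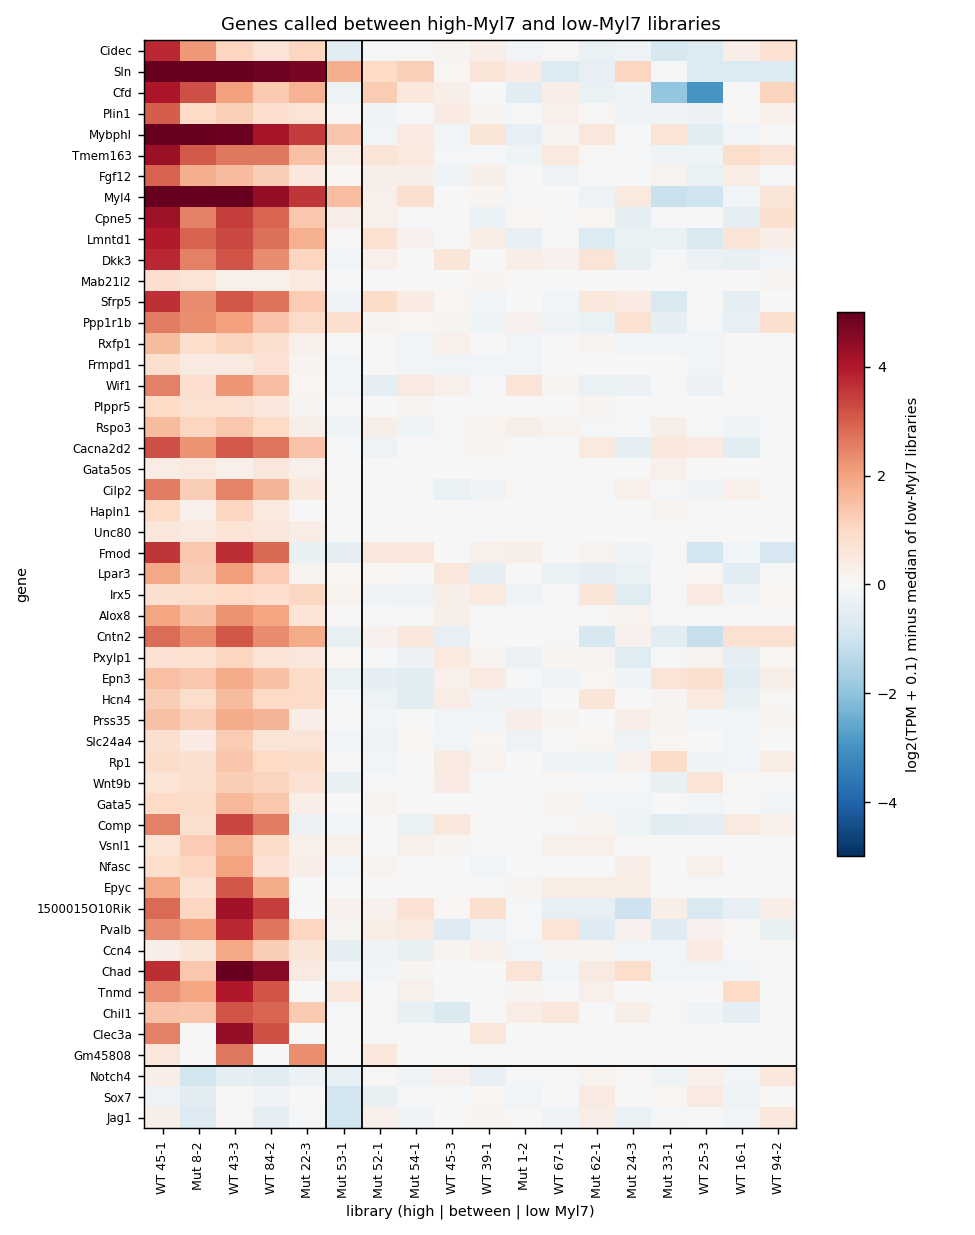
Log2(TPM + 0.1) minus the median of the low-Myl7 libraries for the higher genes described here and, under the line, the 3 lower genes; columns are libraries from the highest to the lowest Myl7, vertical lines enclose WWP2Mut/Mut 53-1, and colours are capped at 5 either way. Genes at the top are strongest in WT 45-1, genes toward the bottom (Comp, Chad, Tnmd, Chil1, Clec3a) in WT 43-3 and WT 84-2, and WWP2Mut/Mut 53-1 resembles the low-Myl7 libraries except for Sln, Mybphl and Myl4.

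Of the 7 white adipocyte genes, 3 were higher and none lower, with a list median of 2.54. None of the 3 was called with lane as a covariate, where the adjusted p was 0.292 to 0.425. Cfd, the complement protease adipsin, was at 16.6, 9.28, 4.05, 2.38 and 3.28 TPM against 0.03 to 2.31 TPM (2.55 ± 0.51, adjusted p = 0.0385), a call lost in 19 of 34 alternative settings. Plin1, which coats lipid droplets, was at 1.01, 0.17, 0.21, 0.14 and 0.11 TPM against 0.01 to 0.08 TPM (2.54 ± 0.45), and Cidec, a lipid droplet fusion protein, was at 2.26, 0.69, 0.27, 0.17 and 0.27 TPM against at most 0.20 TPM (3.16 ± 0.55). WT 45-1 was the highest of all libraries in each of the 3 genes. The list's summed TPM was 6.74 to 29.6 in high-Myl7 and 4.23 to 8.36 in low-Myl7 libraries (exact permutation test, p = 6.46e-04, adjusted p = 0.00646). That p is a description, since this list too was chosen with earlier results known. Pparg, which is also expressed outside fat, was not called (-0.11 ± 0.17). The brown adipocyte list had no called member.

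**Figure D5:**
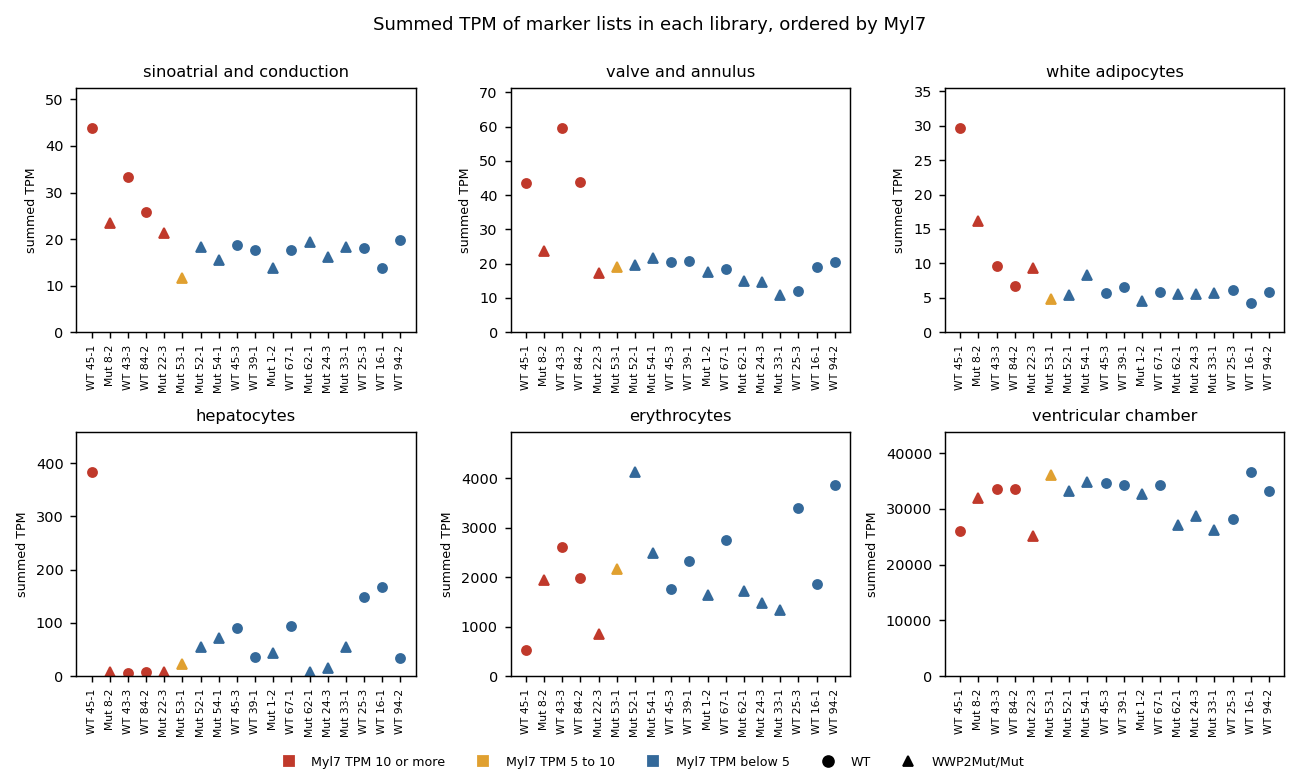
Summed TPM of 6 marker lists in the 18 libraries, ordered from the highest to the lowest Myl7, with a linear axis from 0. The conduction list is higher in all 5 high-Myl7 libraries, the valve list in 4 of 5, and the hepatocyte list stands at 383 TPM in WT 45-1 against 6.09 to 7.78 TPM in the other 4 high-Myl7 libraries.

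Few genes of the ventricular and other cell type lists passed the test. The ventricular chamber list had 1 of 9 members called, Irx5, and its summed TPM was 25117 to 33611 in high-Myl7 and 26228 to 36555 in low-Myl7 libraries (exact permutation test, p = 0.342). Of the 31 lists, 10 held a called gene. Myl4 and Mybphl were also members of the sarcomere isoform list and Sln of the calcium cycling list, which holds Cacna2d2 too. Of 8 tested skeletal muscle genes, Pvalb, a calcium buffer of fast muscle and neurons (3.42 ± 0.53), was the only one with a positive difference and the only one called. The median of that list was -0.30, and its summed TPM did not separate the groups (exact permutation test, p = 0.714). None of the 18 potassium channel and muscarinic signalling genes was called, although 16 of 18 differences were positive and the median was 0.30. The intracardiac neuron list had no called member, and Chat, Slc18a3 and Chrna3 were at 0 TPM throughout. All 6 erythrocyte genes and all 8 endothelial genes had a negative difference, with medians of -0.81 and -0.16, and none was called. The summed erythrocyte level was 533 TPM in WT 45-1 and 846 TPM in WWP2Mut/Mut 22-3, while the other 3 high-Myl7 libraries, at 1953 to 2611 TPM, lay inside the low-Myl7 range of 1330 to 4121 TPM and above the low-Myl7 library of their lane, at 1634 TPM.

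The lower genes were Notch4, a receptor of endothelial cells, Jag1, a ligand of Notch receptors, and Sox7, an endothelial transcription factor. Notch4 was at 9.06, 3.79, 5.17, 4.79 and 5.84 TPM in the high-Myl7 libraries and between 5.45 and 10.8 TPM (median 7.19) in the low ones, a log2 difference of -0.53 ± 0.10 (adjusted p = 0.0179). Jag1 fell by 0.54 ± 0.11 and Sox7 by 0.46 ± 0.09 on the log2 scale (adjusted p = 0.0445 for both). In all 3 genes the groups overlapped in TPM, and the calls were lost in 11 (Notch4), 21 (Sox7) and 22 (Jag1) of 34 alternative settings. No gene was lower without WWP2Mut/Mut 8-2, WT 43-3 or WT 84-2. WT 45-1 alone set much of the lower side: without it, 119 genes were lower (0.485% of 24519) and 61 higher (0.249%), of which 45 were among the 50 above. Those 119 included 9 of the 11 hepatocyte genes, Alb with a log2 difference of -5.28 ± 0.90 among them, and 104 of the 119 had their highest TPM of all 18 libraries in WT 45-1. These genes were named after their values were seen, and with the summed hepatocyte level as a covariate 38 of the 50 higher genes were called.

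The same grouping was examined within each genotype, in libraries that do not overlap. Within WT mice (3 against 6) 38 genes were higher (0.163% of 23289), and within WWP2Mut/Mut mice (2 against 6) 3 genes were (0.0131% of 22818), namely Myl4, Sln and Mybphl. Of the 38 WT genes, 37 were tested in WWP2Mut/Mut mice, where 35 had a positive difference and 22 had one with an unadjusted p under 0.05. Over all genes tested in WWP2Mut/Mut mice 44.98% were positive and 2.04% were positive at that p. The difference of Myl4 was 5.35 in WT and 4.91 in WWP2Mut/Mut libraries, and that of Mybphl 6.16 and 5.45. Dkk3 differed by 3.02 in WT and 1.78 in WWP2Mut/Mut libraries. For Comp the values were 2.56 and 0.55, for Fmod 3.57 and 0.40, and for Chad 7.95 and 1.34. No gene was called for an interaction of grouping and genotype by edgeR, with 738 genes at an unadjusted p under 0.05, and the interaction of Chad (unadjusted p = 2.18e-05, adjusted p = 0.269), Fmod (5.12e-05 and 0.422) and Comp (8.35e-05 and 0.516) did not pass. DESeq2 called 14 genes, these 3 included. Others of the 14 were Dmgdh, Cyp2d9, Rdh7 and Mup19, with estimates of -19.8 to -20.9. These averaged 0 TPM in the high-Myl7 libraries other than WT 45-1, so such estimates rest on single libraries.

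Wwp2 was at 3.83 to 6.01 TPM in WT and 1.19 to 3.00 TPM in WWP2Mut/Mut libraries, and it was the only gene called between genotypes by edgeR, with the grouping as a covariate (log2 difference, WWP2Mut/Mut minus WT, -1.49 ± 0.14, adjusted p = 3.00e-05) or without it (-1.47 ± 0.14). The genotype estimate of Myl4 was -0.64 ± 1.08 without the grouping and -0.0015 ± 0.36 with it, that of Mybphl -0.70 ± 1.13 and -0.017 ± 0.48, and that of Dkk3 -0.88 ± 0.58 and -0.18 ± 0.26. The estimate of Sln turned from -0.64 ± 1.28 to 0.57 ± 0.65. The SE was smaller with the grouping for all 4 genes, which were chosen because they follow it, and none was called between genotypes in either fit. The estimate of Ccn2, a gene not called for the grouping, hardly moved, at -0.83 ± 0.21 without the grouping and -0.80 ± 0.21 with it.

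Sequencing lane moved with the grouping. Of the 5 high-Myl7 libraries, 3 were in lane 3, which held 1 low-Myl7 library, while lane 1 held 4 low-Myl7 libraries and no other. With lane as a covariate 13 of the 50 higher genes were still called, and with lane and RNA concentration 10 were: Myl4, Mybphl, Sln, Cacna2d2, Cpne5, Nfasc, Dkk3, Lmntd1, Plppr5 and Fgf12. Unc80, Alox8 and Sfrp5 were the others called with lane alone. Ppp1r1b, Epn3, Cilp2, Gata5 and Pvalb were called in neither fit. All 50 kept a positive difference in both fits, and none of the 3 lower genes was called. No called gene of the valve and annulus or the white adipocyte list was among the 13, and the permutation tests of summed lists do not take lane into account. Myl4, Mybphl, Sln, Dkk3, Cacna2d2, Hcn4, Cntn2 and Cfd separated the groups over all grouped libraries, so they also did within lanes 2, 3 and 4. That separation therefore does not test lane, and lanes 2 and 4 held 1 high-Myl7 library each. In lane 4 Comp and Fmod did not separate the groups, and WWP2Mut/Mut 22-3 is the high-Myl7 library there. The deposited gene body coverage fraction was 0.0288 to 0.0408 in high-Myl7 and 0.0295 to 0.0540 in low-Myl7 libraries (exact permutation test, p = 0.0375, adjusted over 6 measures p = 0.225), and with it as a covariate 38 of the 50 genes were called. Library totals were 28904364 to 33808002 counts in high-Myl7 and 24566994 to 37451087 in low-Myl7 libraries and overlapped (exact permutation test, p = 0.994). RNA concentration and the absorbance ratios also overlapped. The concentration of WT 43-3 is listed as 1.68 ng/ul, against 88.6 to 320.9 ng/ul in the other libraries of both groups, and may be an entry error. It was kept as deposited in the fit with lane and RNA concentration, and the fit with lane alone does not use it.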

How the data were processed

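Libraries of poly(A) RNA were aligned by the authors to mouse m38 (Ensembl annotation 89) with STAR 2.5.2b and quantified with RSEM 1.2.31, and rRNA and mitochondrial genes were removed. The deposited expected counts, of which 5.11% were not whole, were rounded. The deposited TPM values, which summed to 671770 to 826381 per library, were used as they stand for levels. A deposited table gives lane, RNA concentration, 2 absorbance ratio columns (the A260/280 entry of WT 45-3, far outside the others, was left out) and a gene body coverage fraction of unstated definition. Per library, 24566994 to 37451087 counts were assigned. Symbols were matched for 51242 of 51435 identifiers.

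Genes with more than 1 count in total were tested with edgeR 4.0.16 (TMM, glmQLFit, glmQLFTest, R 4.3.3), high-Myl7 against low-Myl7 with genotype as covariate, with Benjamini-Hochberg adjustment over all genes and a call at 0.05. Since Myl7 set the groups, p-values describe how other genes went with them. DESeq2 1.42.0 and limma 3.58.1 were alternatives. Single values per library were compared with exact permutation tests (scipy 1.17.1). Scripts were tested on simulated data.

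The members and gene lists were chosen with earlier results of these data known. Named genes were the atrial chamber list, the 15 called genes with the smallest p in each direction, called members of the other lists, Wwp2, and the 5 genes correlating most with Myl7 among those with a mean TPM of 1 or more. Other names were chosen after their values were seen. Replicates are separate mice, and same-genotype pairs differed beyond sampling noise (chi-square per gene 15.0 to 272 over 72 pairs). Promoter sequences are from RefSeq. 1 called gene is counted but not reported here.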

Additional observations from a re-analysis of the deposited data

Results flagged for a closer look

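Single libraries that stood apart within their genotype, by a gap to the nearest library larger than Dixon's 95% critical value for 9 samples, were sought in 20 summed lists and the 17 atrial chamber genes besides Myl7, in 74 groups. Chance marks about 1 in 20 groups drawn from a single population, and 17 were marked. That rate does not apply here, since each genotype holds high-Myl7 and low-Myl7 libraries, and 7 of the 17 are Myl4, Sln, Mybphl or Dkk3, which follow the grouping. The ratio of the gap to the range is given for each. Most were the high-Myl7 libraries themselves. In WT mice 45-1 was highest in Myl4 (0.499), Sln (0.769), Mybphl (0.706), Nr2f2 (0.570, at 3.76 TPM against at most 2.54 TPM) and Stard10 (0.726, at 38.1 TPM against at most 20.3 TPM). It was also highest in the summed lists of epicardium and mesothelium (0.595, 12.5 TPM against at most 7.35), white adipocytes (0.787) and hepatocytes (0.573, 383 TPM against at most 167). In WWP2Mut/Mut mice 8-2 was highest in Myl4 (0.774), Sln (0.769), Mybphl (0.806), Dkk3 (0.728) and white adipocytes (0.594, 16.2 TPM against at most 9.26). The low-Myl7 library WWP2Mut/Mut 52-1 was highest in B and T lymphocytes (0.650, 38.1 TPM against at most 18.7) and erythrocytes (0.498), WWP2Mut/Mut 54-1 in Kcna5 (0.552, 15.96 TPM against at most 10.7), and WWP2Mut/Mut 24-3 in brown adipocytes (0.514). Their causes were not tested.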

How the results depend on the processing

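The 50 higher genes became 92 with DESeq2, 10 with RNA concentration and lane, 13 with lane alone and 3 in WWP2Mut/Mut libraries alone, and 32 to 66 when 1 library was left out (32 without WT 43-3, 33 without WWP2Mut/Mut 8-2). Other settings stayed within 1.5 times. The 3 lower genes became 63 with DESeq2, 8 with all libraries divided at 5 TPM, 7 with Myl7 as a continuous measure, 6 without genotype, 5 with the hepatocyte covariate, 1 with no filter and with limma on log2(TPM + 0.1), and 0 with limma on log2(TPM + 1), a division at 10 TPM, RNA concentration and lane, lane alone, and either genotype alone. Leaving out 1 library gave 0 to 119, and leaving out WT 45-1 with gene body coverage added gave 82. The causes of these shifts were not tested. Atrial chamber members called were 5, and 3 in WWP2Mut/Mut libraries alone, 4 to 5 when 1 library was left out. Interaction calls were 0 and 14 with DESeq2, and 0 to 1 with 1 library left out (1 without WT 39-1). Genotype calls were 1 and 5 with DESeq2, and 1 to 2 with 1 library left out (2 without WT 16-1). The number of marker lists called was 3, and 2 to 4 with 1 library left out (2 without WT 43-3 or WT 84-2). Of 1118 values for 33 named called genes, none reversed and 208 lost their call, 30 of them in WWP2Mut/Mut libraries alone. Only Myl4, Sln and Mybphl were called in every setting for which these values were taken. The fit without WT 45-1 with gene body coverage added was not among those. The setting with lane alone and the one without WT 45-1 with gene body coverage added were chosen after seeing the data. No paired analysis was possible because the labels give the genotypes no shared replicate numbers. Genes of a few counts are limited by depth, and their fitted folds depend on the prior count.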
